A study of Mus musculus with 6 samples.

Results

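The guanylate-binding proteins (GBPs) and the immunity-related GTPases (IRGs) are families of GTP-hydrolysing proteins that macrophages make in response to interferons. Rows of the deposited FPKM table were taken by gene symbol for 10 of these genes, out of 54532 genes in the table. The 6 GBP genes were Gbp2, Gbp3, Gbp4, Gbp5, Gbp6 and Gbp7, and the 4 IRG genes were Irgm1, Irgm2, Igtp (also called Irgm3) and Iigp1 (also called Irga6). Of the 10 genes, 4 lie on chromosome 3, 2 on chromosome 5, 3 on chromosome 11 and Iigp1 on chromosome 18.

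The libraries were poly-A RNA-seq of peritoneal macrophages, made to look for mediators of muscone, a macrocyclic ketone, in inflammasome activation. The cells were wild type and came, according to the methods, from young adult male C57BL/6J mice whose peritoneal cells had been elicited with thioglycolate and cultured overnight, so that all groups shared this elicitation and culture. Control cells received no treatment. Model cells received 500 ng/mL LPS, the endotoxin of gram-negative bacteria, for 5.5 h and then 2 mM ATP for 0.5 h. MUS cells were given LPS and ATP at these doses and times and, in addition, 50 µM muscone from 5 h after LPS. Each of the 3 groups had 2 libraries, which the labels number as replicates 1 and 2 and assign to batches 1 and 2. Neither the labels nor the methods say whether the 2 libraries of a group came from separate mice or cultures, so p-values measure the spread between these libraries, which may be technical. Control differs from Model by LPS and ATP at once, and what each of them did cannot be told apart.

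Interferon binding to its receptor activates JAK-family kinases, which switch on transcription factors that bind the interferon-stimulated response element (ISRE) or the gamma-activated site (GAS) of target genes. LPS reaches this pathway through the interferon-β that macrophages release after TLR4 signalling. GBPs gather on bacteria and on the vacuoles that hold them and help to expose LPS to caspase-11, while IRGs act on vacuole membranes, where the M-type members (Irgm1, Irgm2 and Igtp) protect host membranes and hold effectors such as Iigp1 inactive.

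The start regions of the genes were searched first, because ISRE and GAS are the elements through which these families are known to be switched on. RefSeq promoter windows on GRCm38.p6, from 250 bases before to 50 bases after each start site, were at hand for 7 of the 10 genes. An ISRE-like match (GAAANNGAAA, either strand) was found in 7 of these 7 genes and in 3.443% of all 32851 windows of that length. A GAS-like match (TTCNNNGAA, which reads the same on both strands) was found in 4 of the 7 genes, Gbp5, Gbp7, Igtp and Irgm2, and in 8.298% of all windows. Both kinds occurred in these 4 genes and in 0.4536% of all windows. A match is a run of letters and does not show that a factor binds there. The stretches that hold the matches are printed below, 5′ to 3′ on the strand of the gene, with each match in capitals.
Gbp5, chr3:142496684-142496899, plus strand: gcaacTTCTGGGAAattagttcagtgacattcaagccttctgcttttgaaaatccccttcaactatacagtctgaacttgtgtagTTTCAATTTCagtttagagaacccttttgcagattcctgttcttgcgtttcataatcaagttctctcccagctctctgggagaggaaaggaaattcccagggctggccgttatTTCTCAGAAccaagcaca
Gbp7, chr3:142530218-142530335, plus strand: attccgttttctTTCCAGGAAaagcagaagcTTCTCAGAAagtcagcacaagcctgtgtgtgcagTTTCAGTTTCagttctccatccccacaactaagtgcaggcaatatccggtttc
Gbp3, chr3:142559987-142560025, plus strand: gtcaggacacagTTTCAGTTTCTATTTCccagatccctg
Gbp2, chr3:142620594-142620623, plus strand: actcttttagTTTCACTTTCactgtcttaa
Irgm1, chr11:48871428-48871457, minus strand: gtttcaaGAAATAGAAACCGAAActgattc
Igtp, chr11:58199499-58199555, plus strand: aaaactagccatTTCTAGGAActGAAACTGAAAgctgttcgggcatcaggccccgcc
Irgm2, chr11:58214890-58214976, plus strand: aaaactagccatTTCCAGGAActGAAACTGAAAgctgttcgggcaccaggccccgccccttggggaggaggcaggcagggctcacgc

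In 4 GBP genes the ISRE-like letters lay on the strand opposite to the gene, so that their reverse complement is in capitals, and in the 3 IRG genes they lay on the gene's own strand. Gbp3 and Irgm1 each had 2 overlapping ISRE-like matches, printed above as a single run of capitals. The matches of Gbp2 and Irgm1 fell inside an annotated exon. The first base of the match was 165 bases before the start site in Gbp5 and between 64 and 24 bases before it in the other genes. The Igtp and Irgm2 stretches were identical at 55 of the first 57 bases, and each carried a GAS-like and an ISRE-like match side by side. Gbp3 had a second start site whose window held no match.

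**Figure D1:**
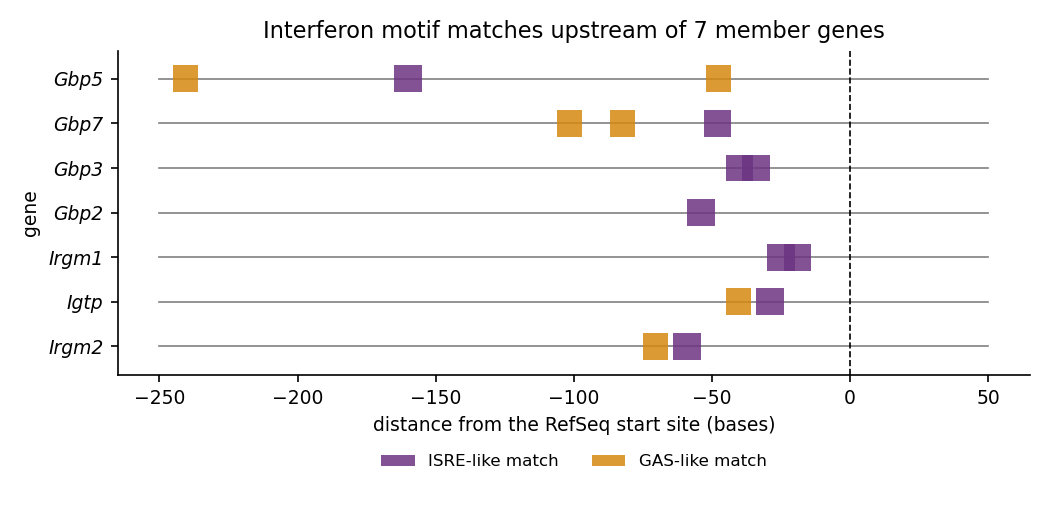
Positions of ISRE-like (purple) and GAS-like (orange) matches in the 300 bases around the RefSeq start site of 7 GBP and IRG genes; the horizontal axis is the distance from the start site in bases and the dashed line marks the start. A reader should see an ISRE-like match in every row, within 64 bases of the start except in Gbp5, and GAS-like matches in 4 rows.

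The table gave whole numbers of fragments per gene once FPKM was multiplied by gene length (100% of values within a tolerance of 0.1 fragment), and the 6 libraries held between 15526321 and 17135442 fragments on genes. For a gene of 1 kb, 3 fragments, the number that a count of 0 still allows, stood for 0.131 to 0.213 FPKM (counting error only). All 8 macrophage markers were expressed, with Lyz2, which encodes lysozyme, between 7275 and 12007 FPKM. None of the 8 T and NK cell markers, 4 B cell markers, 3 mast cell markers or 3 mesothelial markers reached a mean of 1 FPKM, and the T and NK cell markers summed to at most 2.07 FPKM in a library. Neutrophil S100a8 passed and rose in Model vs. Control by 1.90 (limma, adjusted p = 0.0365), whereas S100a9, Ly6g and Retnlg were listed at 0 in every library. Of the eosinophil genes, Epx and Prg2 were listed at 0 throughout, while Siglecf was at 4.06 and 2.46 FPKM in Control and 1.23 to 1.52 FPKM in the treated libraries (-0.83 in Model vs. Control, limma adjusted p = 0.0661). Of 4 dendritic cell markers only Itgax passed, at 36.9 to 97.0 FPKM. What these other cells contribute was not tested. In such bulk samples, fewer cells of a type and less RNA per cell cannot be told apart.

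The 2 Control libraries differed in the GBP and IRG genes. Every one of the 10 was higher in Control replicate 2 than in Control replicate 1, by a median of 1.57 and by 0.57 (Gbp4) to 4.28 (Gbp5) on the log2(FPKM + 1) scale, against a median of 0.04 over all 9794 genes tested. The difference was above 1 for 9 of the 10 genes and for 5.93% of all genes tested. As a ratio of FPKM it was between 2.98-fold (Igtp) and 86.1-fold (Gbp5). The Gbp4 difference is small on the log2 scale because 1 was added to values of 0.0409 and 0.542 FPKM. Their ratio was 13.3-fold. Among genes outside the family, Nlrp3, the inflammasome sensor, was at 7.20 and 52.5 FPKM and Cd14, the LPS co-receptor, at 125 and 406 FPKM in the same 2 libraries. Both genes were named after their values were seen. Of the 6 inflammasome genes examined, which include Nlrp3, 6 were higher in Control replicate 2 (median 0.85). Of the 8 macrophage markers, which include Cd14, 4 were higher there (median 0.09), so not all macrophage genes shared this direction. The 2 libraries carry the same label, and why they differ was not tested. Results of the 10 genes against Control are therefore given with and without each of them. Those of all other genes named below use both Control libraries only.

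**Figure D2:**
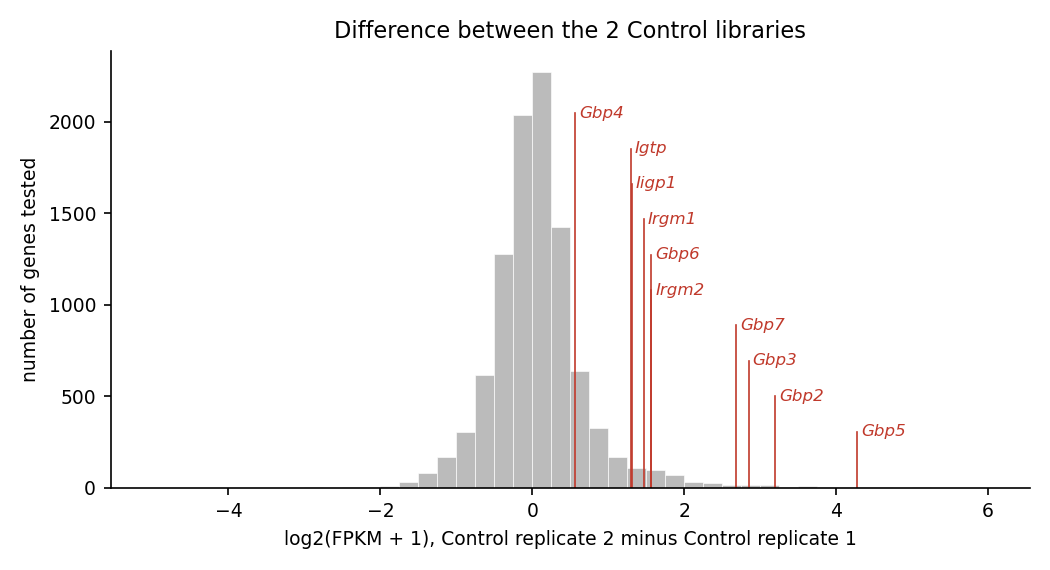
Difference between the 2 Control libraries in log2(FPKM + 1), replicate 2 minus replicate 1; grey bars count the 9794 genes tested and red lines mark the 10 GBP and IRG genes, with line heights staggered only to separate the names. The bulk of genes lies around a median of 0.04, and the 10 marked genes all lie to the right, from 0.57 for Gbp4 to 4.28 for Gbp5. Adding 1 to values below 1 FPKM shortens the Gbp4 difference.

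In Model vs. Control, all 10 GBP and IRG genes rose. Each was a DEG, with an adjusted p of at most 0.05 by limma and an absolute log2 fold change over 1, against 9.5% of the genes tested that were DEGs with higher levels in Model and 5.56% with lower levels. The mean FPKM was 9.41-fold (Gbp2) to 36.7-fold (Iigp1) higher in Model. The median log2 fold change of the 10 genes was 4.20, against 0.04 over all genes tested, and they ranked from 30 (Gbp5) to 245 (Gbp4) among the 9794 genes. For each of the 10, both Model libraries stood above both Control libraries, as they did for 32.6% of the genes tested. With only Control replicate 1 left out, all 10 were still DEGs, with log2 fold changes of 2.36 to 3.84. Leaving out only Control replicate 2 kept all 10 as DEGs, with changes of 2.96 to 7.79. Scaling the libraries to their fragment totals turned the split of all DEGs from 930 higher and 545 lower to 646 higher and 1554 lower, and quantile normalization turned it to 707 and 715. The median of all genes moved from 0.04 to -0.40 with the former and to -0.06 with the latter. The 10 genes were higher in Model under these and the other scalings, although Gbp2 was no longer a DEG after quantile normalization (3.31, limma adjusted p = 0.0667). Without a filter on low values, which put 30192 genes into the adjustment, 2 of the 10 (Igtp and Iigp1) were DEGs. Calls also depended on treated libraries, as 6 of the 10 were DEGs without Model replicate 1 (not Gbp2, Gbp3, Gbp5 and Gbp7), 7 without Model replicate 2 (not Gbp2, Gbp5 and Gbp7) and 8 without either MUS library (not Gbp2 and Gbp5).

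Gbp2 (ENSMUSG00000028270, chromosome 3, 142620602 to 142638008, plus strand), a prenylated GBP that binds to vacuoles and LPS-bearing bacteria, was the most abundant of the 10 genes in every library. It was at 10.9 and 109 FPKM in Control, 519 and 605 FPKM in Model, and 866 and 772 FPKM in MUS. Its rise in Model vs. Control was 3.96 (SE 0.91, limma adjusted p = 0.0285), the least certain of the 10. Control replicate 2 already held 19.3% of the mean Model level, more than for any of the other 9 genes. The rise was 5.45 between the batch 1 libraries and 2.47 between those of batch 2.

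Gbp5 (ENSMUSG00000105504, chromosome 3, 142493978 to 142522344, plus strand), another prenylated GBP, which has been linked to NLRP3 assembly, had the largest log2 fold change of the 10 and the widest Control spread. Its levels were 0.277 and 23.8 FPKM in Control, 257 and 311 FPKM in Model, and 298 and 266 FPKM in MUS. The Control values rest on 42 and 3619 fragments, so counting error is far smaller than the gap between them. The change in Model vs. Control was 5.65 (SE 1.18, limma adjusted p = 0.0211). Its size depended on the Control library, with 3.51 when Control replicate 1 was left out and 7.79 when Control replicate 2 was. All 4 treated libraries stood far above the higher Control library.

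Gbp3 (ENSMUSG00000028268, chromosome 3, 142560026 to 142573209, plus strand), a neighbour in the same gene cluster, stood second in level. It was at 3.0005 and 27.8 FPKM in Control, 469 and 348 FPKM in Model, and 470.0 and 381 FPKM in MUS. The rise in Model vs. Control was 5.24 (SE 0.82, limma adjusted p = 0.00865). Gbp7 (ENSMUSG00000040253, chromosome 3, 142530342 to 142550149, plus strand), which has been tied to assembly of the phagocyte NADPH oxidase, was lower throughout. Its values were 1.31 and 13.8 FPKM in Control, 119.7 and 147 FPKM in Model, and 160.3 and 139.9 FPKM in MUS. It rose by 4.51 (SE 0.77, limma adjusted p = 0.0109). Both genes showed the same picture, 2 Control libraries far apart and 4 treated libraries close together above them. Of the 50-base stretches in Gbp7 transcripts, 12.74% also occur in transcripts of another gene, mostly the overlapping Gm43802, so part of its fragments could belong elsewhere.

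Gbp4 and Gbp6 belong to the second cluster, on chromosome 5, and were the lowest of the 10 in Model. Gbp4 (ENSMUSG00000079363, 105115767 to 105139586, minus strand) was at 0.0409 and 0.542 FPKM in Control, 5.29 and 9.44 FPKM in Model, and 10.5 and 8.22 FPKM in MUS. In Control these values rest on 7 and 93 fragments, and Gbp4 passed the filter on low values only through the treated libraries. The change of 2.68 (SE 0.32, limma adjusted p = 0.00388) understates the 25.3-fold difference of mean FPKM, because 1 was added to values below 1. Gbp6 (ENSMUSG00000104713, 105270702 to 105293698, minus strand) was at 0.154 and 2.42 FPKM in Control, 22.4 and 26.9 FPKM in Model, and 31.0 and 24.9 FPKM in MUS. It rose by 3.69 (SE 0.48, limma adjusted p = 0.00483). Neither gene overlapped between Control and the treated libraries. The Gbp6 values are uncertain, since 70.65% of the 50-base stretches of its transcripts are shared with another gene, chiefly the overlapping Gm43302 (64.98%), and Gbp4 overlaps Gbp8 and Gbp9 on the same strand.

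Irgm1 (ENSMUSG00000046879, chromosome 11, 48861968 to 48871683, minus strand), a regulatory IRG found on the Golgi and on lysosomes, was at 4.50 and 14.3 FPKM in Control, 138 and 102 FPKM in Model, and 144 and 123 FPKM in MUS. Its rise was 3.70 (SE 0.49, limma adjusted p = 0.00499). Irgm2 (ENSMUSG00000069874, chromosome 11, 58199618 to 58222782, plus strand), a regulatory IRG that restrains caspase-11 responses, was at 2.76 and 10.2 FPKM in Control, 54.7 and 70.3 FPKM in Model, and 69.2 and 65.9 FPKM in MUS. It rose by 3.28 (SE 0.49, limma adjusted p = 0.00742). Igtp (ENSMUSG00000078853, chromosome 11, 58199556 to 58207591, plus strand), the M-type IRG of the endoplasmic reticulum, was at 2.81 and 8.39 FPKM in Control, 162 and 104 FPKM in Model, and 144 and 133 FPKM in MUS. The Igtp change of 4.45 (SE 0.46, limma adjusted p = 0.00263) was the largest of the 3. By ratio of FPKM, these regulatory IRGs had the closest Control libraries of the 10 genes, 2.98-fold to 3.68-fold apart. On the log2(FPKM + 1) scale Gbp4 was closer (0.57). The annotated spans of Irgm2 and Igtp overlap on the same strand, and 7.772% and 11.77% of their 50-base stretches are shared, so fragments could be divided between them.

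Iigp1 (ENSMUSG00000054072, chromosome 18, 60376029 to 60392627, plus strand) is the effector IRG that is loaded onto the vacuole of Toxoplasma. It was at 0.280 and 2.18 FPKM in Control, 37.7 and 52.7 FPKM in Model, and 67.4 and 54.9 FPKM in MUS. The rise of 4.50 (SE 0.44, limma adjusted p = 0.00215) carried the smallest adjusted p of the 10. Control replicate 2 held 4.83% of the mean Model level, the lowest share among the 10 genes, and the batches gave changes of 4.92 and 4.08.

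Since both Model libraries stood above both Control libraries for every gene, the batches had to agree in direction, and only sizes are compared. Between the batch 1 libraries Model exceeded Control by 2.60 (Gbp4) to 7.66 (Gbp5), and between the batch 2 libraries by 2.47 (Gbp2) to 4.08 (Iigp1). For 9 of the 10 genes the batch 1 difference was the larger, and for Gbp4 it was the smaller (2.60 against 2.76). Each difference contains 1 Control library, so this largely repeats the gap between the Control libraries and is no separate result. That gap was 0.57 to 4.28, while Model replicate 2 minus replicate 1 was -0.63 to 0.73.

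**Figure D3:**
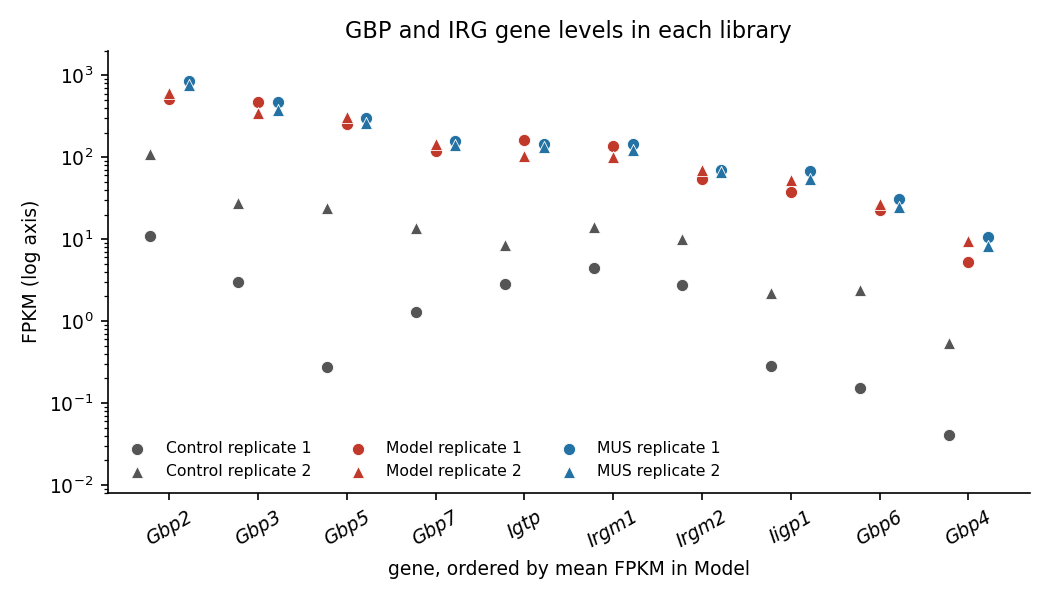
FPKM of the 10 GBP and IRG genes in each library on a log axis, ordered by mean level in Model; grey points are Control, red Model and blue MUS, with circles for replicate 1 and triangles for replicate 2. Every treated point lies above both Control points of its gene, and the Control circle lies below the Control triangle in all 10 genes, most of all in Gbp5 (0.277 and 23.8 FPKM).

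Levels per length differed widely among the 10 genes. In Model the mean FPKM ran from Gbp2 (562 ± 60.7, SD, n = 2) through Gbp3 (409 ± 85.6), Gbp5 (284 ± 38.2), Gbp7 (133 ± 19.3), Igtp (133 ± 40.9), Irgm1 (119.8 ± 25.5), Irgm2 (62.5 ± 11.01), Iigp1 (45.2 ± 10.6) and Gbp6 (24.7 ± 3.19) to Gbp4 (7.37 ± 2.93). Among neighbours in that order, the libraries of Gbp7 and Igtp and those of Igtp and Irgm1 overlapped, and the others did not. MUS had the same order of means, and there Irgm2 and Iigp1 overlapped as well. In Control, Irgm1 stood above Gbp7, and Gbp6 above Iigp1, but the spread was so wide that all neighbours overlapped except Igtp and Gbp6. The means of Irgm2 and Igtp were also the other way round in Control, with overlap, whereas in Model both Igtp libraries stood above both Irgm2 libraries.

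The 10 genes summed to 26.1 and 212 FPKM in the Control libraries, to 1785 and 1776 FPKM in those of Model and to 2261 and 1969 FPKM in those of MUS. As a share of all FPKM, the Control libraries held 0.0111% and 0.0892%, the Model libraries 0.456% and 0.589%, and the MUS libraries 0.698% and 0.645%. The sum thus differed far more between the Control libraries than between the Model libraries. GBP genes made up 60.3% of the sum in Control replicate 1 and 78.0% to 83.5% in the other 5 libraries. The share of Gbp5 was 1.06% in Control replicate 1 and 11.2% to 17.5% elsewhere. Gbp2 took 41.9% and 51.2% of the sum in the Control libraries, 29.1% and 34.1% for Model and 38.3% and 39.2% for MUS.

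In MUS vs. Model, which asks what muscone added shortly before ATP did to these genes, none of the 10 was a DEG, and neither was any other of the genes tested (0%, limma). The study reported DEGs in MUS vs. Model with DESeq2, which was not run here, so the count of 0 holds for this fit only. With the replicate number as a block 4 genes were DEGs, none of them among the 10. An unadjusted p under 0.05 was found for 0 of the 10 genes and for 825 of all genes tested (8.42%), and voom on the recovered fragments also called 0 of the 10. The p-values of the 10 genes lay between 0.319 and 0.998 before adjustment (limma) and between 0.832 and 1 after it. Their median log2 fold change was 0.17, with 9 of 10 above 0, against a median of 0.01 and 51.3% above 0 over all genes. The exception, Gbp5, was at -0.00277, a sign that changed to 0.00611 with fragment-total scaling and to 0.17 after quantile normalization.

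Only Gbp2 and Iigp1 had both MUS libraries above both Model libraries, as did 21.2% of the genes tested. Gbp2 was 1.46-fold higher by mean FPKM, with a log2 difference of 0.54 (95% interval -1.61 to 2.69, limma adjusted p = 0.918). For Iigp1 the ratio was 1.35-fold and the log2 difference 0.44 (95% interval -0.60 to 1.48, limma adjusted p = 0.850). The remaining 8 overlapped, with mean ratios of 0.995 (Gbp5) to 1.27 (Gbp4). Intervals were narrowest for Gbp4 (-0.41 to 1.10) and widest for Gbp5 (-2.78 to 2.77). The Gbp4 width depends on the 1 added to its low values, as its SE of 0.32 became 0.69 with a pseudocount of 0.1. Intervals and p-values rest on a single spread per gene over all 3 groups, so the gap between the Control libraries widens them. For Gbp5 the SE was 1.18 here as in Model vs. Control, while its treated libraries lay between 257 and 311 FPKM. The Gbp5 interval thus mostly reflects Control libraries that play no part in this comparison. With only Model and MUS in the fit, no call of these genes changed. The difference was positive in both batches for Gbp2, Gbp3, Irgm1 and Iigp1, and changed sign between batches for the other 6. These libraries therefore do not show whether muscone raised, lowered or left these transcripts.

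MUS vs. Control shares its Control libraries with Model vs. Control and is no separate evidence. There the 10 genes were again all DEGs with higher levels in MUS, against 11.3% of the genes tested, and 39.6% of the genes tested had both MUS libraries above both Control libraries. Log2 fold changes ran from 3.02 (Gbp4, limma adjusted p = 0.00228) to 5.65 (Gbp5, limma adjusted p = 0.0163), with a median of 4.52 against 0.04 over all genes. The ratio of mean FPKM ran from 10.5-fold (Irgm2) to 49.6-fold (Iigp1). When 1 Control library was left out, either way, all 10 remained DEGs. With MUS replicate 1 left out 3 of the 10 were DEGs, and with MUS replicate 2 left out 8 were.

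**Figure D4:**
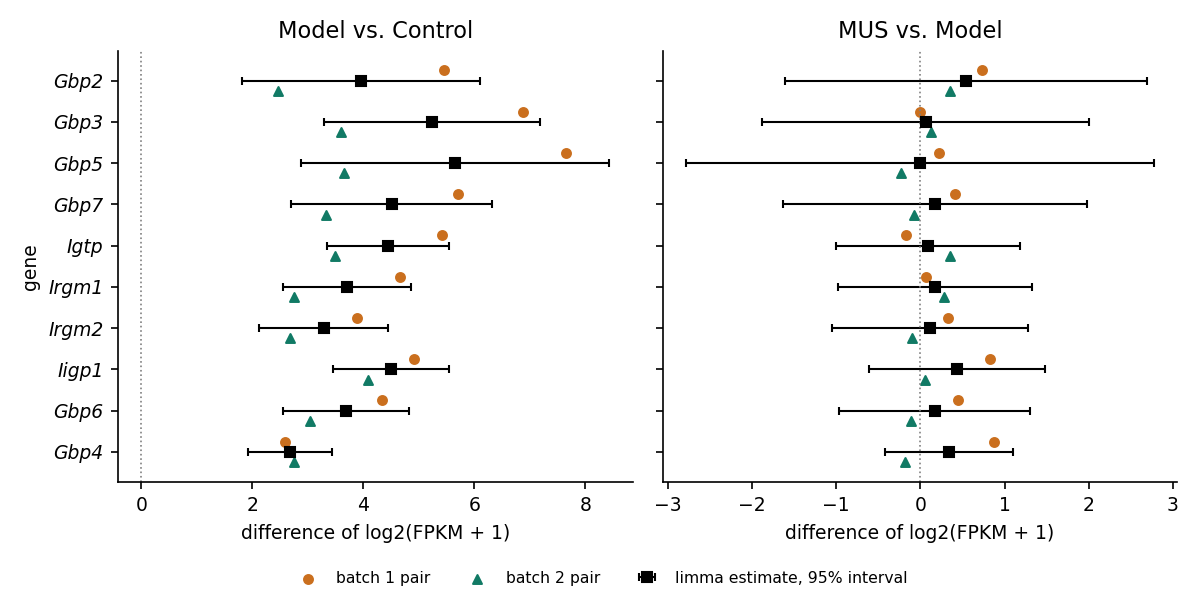
Differences of log2(FPKM + 1) for the 10 genes in Model vs. Control (left) and MUS vs. Model (right); black squares are limma estimates with 95% intervals, orange circles the batch 1 pair and green triangles the batch 2 pair. All intervals on the left lie above 0 and all on the right include 0, with Gbp5 the widest in both.

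Other members of both families were examined as a list of 16 genes, of which 10 were abundant enough to be tested. Of these, 7 were DEGs with higher levels in Model vs. Control and none with lower levels, and the median change was 2.48. Over all genes tested the shares were 9.5% and 5.56%, against which the lists below are also to be read. Tgtp1, Gm4951 and Gvin1, at Control means of 0.0614, 0.397 and 0.840 FPKM, passed the filter only through the treated libraries. The list also held 1 gene that was lower in Model and was not a DEG. Ifi47, an IRG also called Irg47, was at 4.39 and 41.7 FPKM in Control, 912 and 550 FPKM in Model, and 460 and 459 FPKM in MUS, a rise of 5.55 (limma adjusted p = 0.00863). Its Model level exceeded that of every member except Gbp2 in replicate 2. Gm12250 (Irgb10), an IRG that helps to break open bacteria, rose by 4.42, Gbp9 by 4.25, Tgtp2 by 3.73 and Gm4951 by 3.09. The values of Tgtp1 and Tgtp2, which are near-identical copies, are uncertain. In MUS vs. Model, 0 of these genes were DEGs, 1 (Gvin1) had an unadjusted p under 0.05, and Ifi47 differed by -0.62 (95% interval -2.68 to 1.43).

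Upstream of the families, the interferon genes examined (Ifng, Ifnb1 and Ifnl3) were scarce at the single time sampled. No other interferon gene was examined. Ifng, encoding interferon-γ, had 0 fragments in both Control libraries, 17 and 22 in the Model libraries and 19 and 26 in those of MUS, and was too low to be tested. Ifnb1, encoding interferon-β, had 0 fragments in both Control libraries, 32 and 8 in the Model libraries and 15 and 12 in those of MUS. It passed the filter only through the treated libraries, and its log2 difference of 1.38 was not a DEG (limma adjusted p = 0.0595). Ifnl3 was listed at 0 in all 6 libraries. Ifng and Ifnb1 were detected in every treated library and in neither Control library, where a count of 0 allows up to 3 fragments. Of the 4 receptor subunits, Ifnar2 rose by 1.43 (limma adjusted p = 0.0163), Ifngr1 fell by 1.15 on the log2 scale (limma adjusted p = 0.0245), and Ifnar1 and Ifngr2 were not DEGs at 1.08 and 0.43. The interferon genes were named after their values were seen.

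Among 11 kinases and factors of interferon signalling, 10 were tested, with a median change of 2.14 in Model vs. Control. Of these, 5 were DEGs with higher levels and none with lower levels. The DEGs were the kinase Jak2 (3.21), Stat2 (3.12), the MHC class I activator Nlrc5 (2.96), Batf2 (2.38) and Irf9 (1.98). Irf1, a factor known to act on Gbp promoters and named here after its values were seen, was at 8.66 and 49.7 FPKM in Control and at 133 and 87.3 FPKM in Model, and its difference of 2.30 was not a DEG (limma adjusted p = 0.0681). Of these 10 genes 9 were higher in Control replicate 2 than in Control replicate 1, with a median of 0.97. The median MUS vs. Model difference was 0.16, and 0 of the 10 had an unadjusted p under 0.05.

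Of 6 inhibitors of the pathway, all tested, 4 were DEGs with higher levels in Model vs. Control and none with lower levels. The other 2 were lower in Model but were not DEGs. Usp18, which blocks the type I receptor, rose by 5.89, Socs3 by 5.58, Socs1 by 2.80 and the phosphatase Ptpn2 by 1.21. Socs1, an inhibitor of JAK kinases, was at 0.421 and 1.05 FPKM in Control, 11.99 and 9.90 FPKM in Model, and 2.46 and 3.13 FPKM in MUS. With a Control mean of 0.737 FPKM, it passed the filter on low values only through the treated libraries. Its MUS level lay between the other groups without overlap, with a log2 difference from Model of -1.65 (limma adjusted p = 0.257). Socs3 was at 380 and 374 FPKM in Model and 102 and 169 FPKM in MUS, a log2 difference of -1.51 (limma adjusted p = 0.537). Both had an unadjusted p under 0.05 but neither was a DEG in MUS vs. Model, and the 10 GBP and IRG genes had no unadjusted p under 0.05 in the same libraries.

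**Figure D5:**
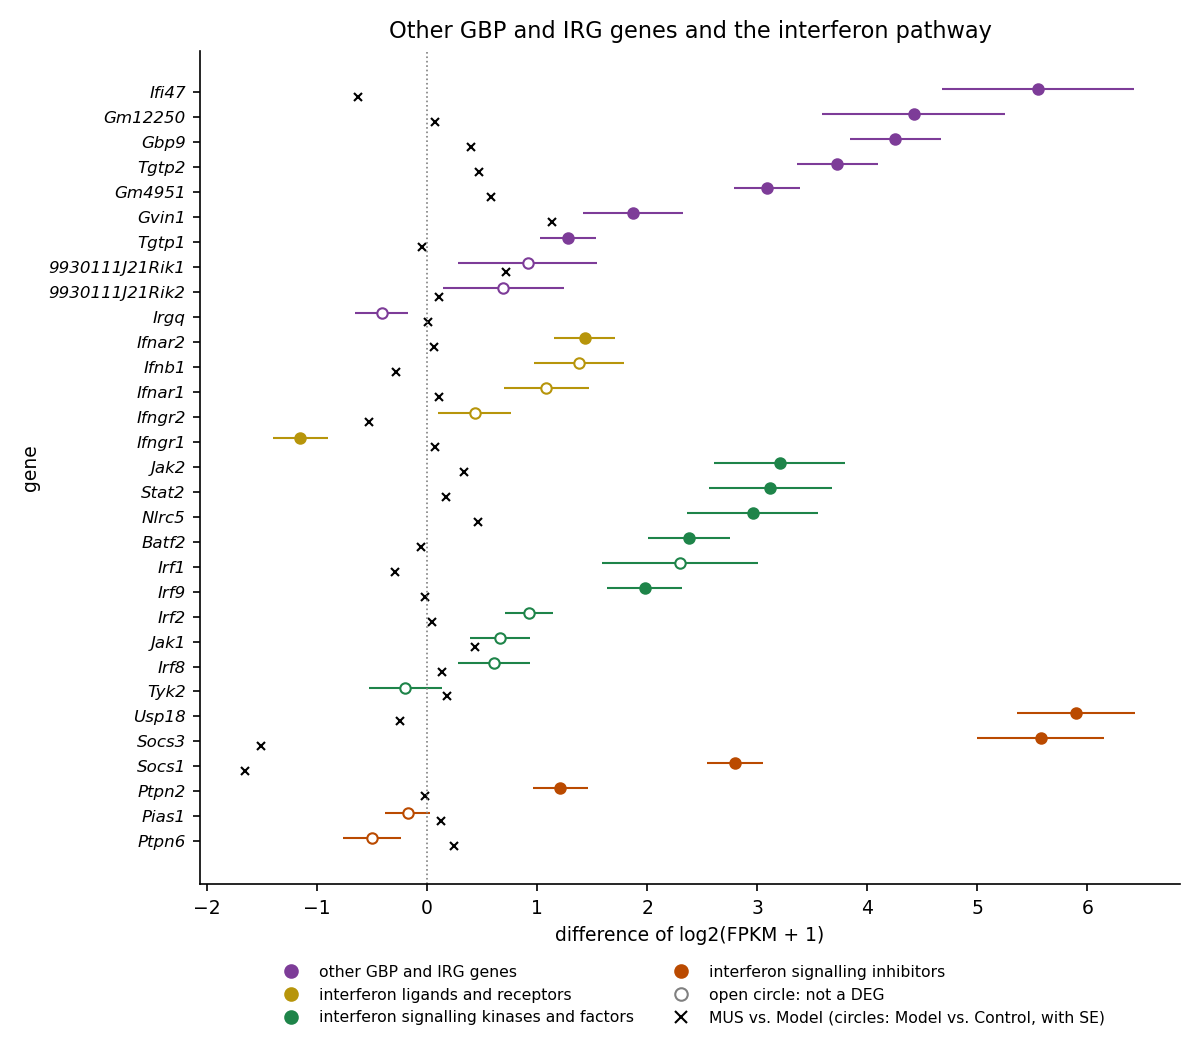
Differences of log2(FPKM + 1) in the other GBP and IRG genes and in the interferon pathway; circles with SE bars are Model vs. Control, filled for DEGs, and crosses are MUS vs. Model. Filled circles reach 5.55 (Ifi47) and 5.89 (Usp18), most crosses lie near 0, and the crosses of Socs1 (-1.65) and Socs3 (-1.51) lie farthest to the left.

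Genes that work with GBP and IRG proteins were examined as 3 lists. The LC3 conjugation and ubiquitin machinery that places these proteins on membranes had 14 genes tested, whose Model vs. Control median was 0.02, against 0.04 over all genes. There Trim21, a ubiquitin ligase, rose by 2.77, while Atg7 and Gabarapl1 fell by 1.39 and 1.09, and the other 11 were not DEGs. The most abundant of them, the cargo receptor Sqstm1, differed by 0.03. Of the 6 genes of the NLRP3, caspase-11 and AIM2 inflammasomes, 4 rose as DEGs. They were Nlrp3 by 3.15, Casp4 (caspase-11) by 3.03, Casp1 by 2.62 and Gsdmd, the pore-forming protein, by 1.90. The 6 enzymes that prenylate and process CaaX proteins such as Gbp2 and Gbp5 had 0 DEGs (limma). Their median was -0.11, with 3 genes higher and 3 lower in Model. In MUS vs. Model 0 genes of these 3 lists were DEGs.

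The 5 genes whose profile over the 6 libraries was most like the mean of the 10, each centred log2(FPKM + 1) profile being compared by its root mean square difference, were Ifih1 (0.132), Trim30d (0.176), Phf11d (0.208), Zbp1 (0.231) and Trim30a (0.233). The 10 genes themselves differed from their mean by 0.240 (Gbp7) to 0.915 (Gbp5). Ifih1, which encodes the RNA sensor MDA5, was at 3.58 and 24.1 FPKM in Control, 209 and 219 FPKM in Model, and 269 and 211 FPKM in MUS. It too was higher in Control replicate 2 and showed a MUS vs. Model difference of 0.16. Likeness over 6 libraries of 3 groups rests mostly on the step from Control to the treated groups and on the gap between the Control libraries.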

How the data were processed

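RNA-seq was measured in 6 libraries. The deposited table holds FPKM, which per the study's methods the authors quantified with RSEM, while the submitters' processing notes name HISAT2, featureCounts 1.5.0-p3 and GRCm39; these sources differ. Gene positions in the table equal those of GENCODE M21 (GRCm38) for 98.3% of 54495 shared identifiers and for 9 of the 10 genes (not Iigp1), so coordinates are given as GRCm38. Columns of per-sample values with no sample numbered 0. The per-million scale was 1.45 and 1.34 times the fragment total in Control and 0.909 to 0.998 times elsewhere. The study called DEGs with DESeq2, which was not run here. The main fit used the FPKM as deposited, and the recovered fragments were fitted only in the voom and fragment-total alternatives.

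log2(FPKM + 1) of the 9794 genes whose FPKM averaged 1 or more was fitted with limma 3.58.1 (R 4.3.3) in one model of 3 groups, with a mean-variance trend, 3 residual and 4.04 prior degrees of freedom, two-sided tests and Benjamini-Hochberg adjustment over all genes tested. Adding 1 understates changes of low genes. An exact permutation test of 2 against 2 libraries cannot go below p = 0.333. The labels give the replicate number as the batch, which pairs the libraries, and replicate differences correlated across genes by 0.119 (Control and Model), 0.136 (Model and MUS) and -0.0928 (Control and MUS). The fit with this block is an alternative, since the study's methods state none. The correlation of replicates across genes was 0.924 for Control, 0.944 for Model and 0.981 for MUS. Promoter sequences came from RefSeq (GRCm38.p6). Tables were prepared with pandas 2.3.3 and NumPy 2.4.6, and figures with Matplotlib 3.10.9, under Python 3.11.15.

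The 10 genes and all lists were chosen with earlier results of these data known. Genes named beyond the 10 are, by rule, up to 6 of a list (the largest changes among DEGs and the most abundant gene) and the 5 most alike in profile. Any other gene was named after its values were seen. Alternatives were other scalings, pseudocounts, filters, libraries in the fit, no trend, the block, voom on recovered fragments and leaving out each library. The result for 1 gene of these lists is not reported here.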

Additional observations from a re-analysis of the deposited data

How the results depend on the processing

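Every value of the 10 genes against Control kept its direction under all alternatives, and with the replicate block, which pairs libraries of one batch, no call of these genes changed and MUS vs. Model had 4 DEGs over all genes in place of 0. Without a filter on low values, 30192 genes were tested and limma's adjusted p rose: in Model vs. Control 2 of the 10 (Igtp and Iigp1) and 260 of all genes were DEGs, and in MUS vs. Control 5 and 456. With voom, 2734 and 3144 of all genes were DEGs in these comparisons, and with only the 2 groups compared, 797 in Model vs. Control and 7 in MUS vs. Model. With the 2 groups alone Gbp2 and Gbp5 lost their Model vs. Control call (limma adjusted p = 0.0675 and 0.0520). The median of the 10 genes in Model vs. Control was 3.71 with fragment-total scaling and 4.80 with a pseudocount of 0.1, which gave 5.02 in MUS vs. Control and 1 DEG of all genes in MUS vs. Model. The split into higher and lower DEGs in Model vs. Control was 228 and 32 without a filter, 812 and 274 with a mean FPKM of at least 5, and 684 and 2050 with voom.

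Leaving out each library in turn gave in Model vs. Control 6 to 10 of the 10 genes as DEGs, 692 to 2077 of all genes and a median of 3.07 to 5.13. Over all genes, Model vs. Control had 763 DEGs without Control replicate 1, 692 without Model replicate 1, and 800 and 797 without MUS replicates 1 and 2. In MUS vs. Control the ranges were 3 to 10 of the 10, 184 to 2398 of all genes and a median of 3.24 to 5.39, and in MUS vs. Model 0 to 0, 0 to 31 and 0.07 to 0.30. MUS vs. Control had 1082 DEGs over all genes without Control replicate 1, 184 without MUS replicate 1 and 719 without MUS replicate 2, and MUS vs. Model had 31 without Model replicate 2 and 5 without either Control library. Signs changed only in MUS vs. Model, in 12 values, while 148 kept them: Gbp5 at 0.00611 (fragment-total scaling), 0.17 (quantile normalization), 0.00354 (median of ratios), 0.00621 (voom), 0.13 (without Model replicate 2) and 0.08 (without MUS replicate 2); without Model replicate 1, Gbp4 at -0.020 and Irgm2 at -0.058; without Model replicate 2, Gbp3 at -0.15, Irgm1 at -0.046 and Igtp at -0.22; and without MUS replicate 1, Gbp3 at -0.09. Over the libraries left out these genes ranged from -0.15 to 0.28 (Gbp3), -0.020 to 0.71 (Gbp4), -0.14 to 0.13 (Gbp5), -0.046 to 0.39 (Irgm1), -0.058 to 0.30 (Irgm2) and -0.22 to 0.41 (Igtp). The cause was not tested. A group left with 1 library is assumed to vary like the others.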
